A study of Mus musculus with 6 samples.

Results

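The collagen genes of mouse embryonic fibroblasts lacking FHL2 were compared with those of wild-type fibroblasts. A gene belonged to the family when its symbol had the form of Col, a type number, the letter a and a chain number, and when at least 1 probe set of the array was annotated to it alone. This gave 42 collagen genes among 18193 genes measured. Each gene was read from the probe set with the highest mean level over the 6 arrays, and its other probe sets served as a check. The knockout cells were 3 clones from FHL2-/- mice, named E, H and J, and they were set against 3 wild-type (WT) clones, named E, F and I. All 6 clones had become immortal spontaneously, without an added oncogene being named, and each was measured on 1 array, so a group was 3 clonal lines in culture without any named treatment. The submitters called the clones of a genotype biological replicates, while the labels did not give the embryos they came from, the passage number or the growth conditions. P-values therefore measured only the spread between these lines, which may be partly technical. Levels were log2 values of hybridisation signal, so a difference of 1 was a 2-fold change, and a gene was said to have risen or fallen only when limma's adjusted p over all 18193 genes was under 0.05.

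Collagens are secreted proteins of 3 chains wound into a triple helix, and many of them assemble only when particular partner chains are made together. Fibrillar collagens form the tensile fibres of skin, bone, tendon and cartilage, type IV collagens form the sheet of the basement membrane, type VI forms beaded filaments next to cells, FACIT collagens sit on the surface of fibrils, and a few collagens stay anchored in the cell membrane. Fibroblasts are a main source of the fibrillar chains of types I, III and V and of type VI. FHL2 is a LIM-domain protein that binds integrins, actin-associated proteins and several transcription factors.

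The targeted gene followed the labels, and clone values are listed throughout in the order E, H, J for the knockout and E, F, I for WT. In clones E, H and J of the knockout Fhl2 read 6.01, 6.44 and 6.57, and it read 9.88, 8.57 and 9.64 in WT clones E, F and I, a difference of -3.02 (SE 0.35, limma adjusted p = 0.00400). Over all genes, knockout clone H correlated with clones E and J at 0.964 and 0.968, whereas E and J correlated at 0.991 and the WT pairs at 0.988 to 0.991. The difference of a collagen is therefore also given without clone H where that changed its call. Calls of cell type markers are given with all 6 clones only. The median array level was 4.52 to 4.54 in the knockout clones and 4.44 to 4.46 in the WT clones. Values of WT clone E were deposited with more decimals than the others, and no source used here says whether that array was processed separately. All 10 fibroblast markers examined had a mean over the 6 arrays at or above the median level of all genes, 5.92. Single clones lay below it for Lum, at 5.75 and 4.63 in WT clones E and I, and for Fap. Fap read 4.05 and 5.49 in knockout clones E and H and 5.45 in WT clone I. The log2 of the summed linear levels of the 10 markers was 15.2 to 15.4 in knockout clones and 14.9 to 15.0 in WT clones. Of these markers 3 rose, Lum, Dcn and Pdgfra, by 4.81, 2.04 and 1.76, and 2 fell, Thy1 and Pdgfrb, with differences of -1.34 and -0.64. The shares of all genes were 9.04% and 10.0%. Their part in the collagen differences was not tested. All 8 chondrocyte, 4 osteoblast, 6 endothelial and 5 skeletal muscle markers measured had mean levels over the 6 arrays below the median of all genes. Single clones exceeded it for some of these markers, such as Tek at 8.36 and 8.91 in knockout clones E and J. Mean levels above the median of all genes were found for 5 of 6 smooth muscle markers, 1 of 6 epithelial markers, Epcam, 1 of 6 macrophage markers and 1 of 4 adipocyte markers. Epcam also rose, by 0.43, but the name of its probe set ends in _x_at, a mark of possible cross-hybridisation. Of the 42 collagens, 10 were below the 25th percentile of gene levels. In these bulk RNA samples, fewer cells of a type and less RNA per cell cannot be told apart.

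Of the 42 collagens, 10 rose in knockout clones and 0 fell, while 32 did not pass the test. Over all genes tested, 9.04% rose and 10.0% fell. At an unadjusted p under 0.05, 17 collagens were higher and 1, Col4a5, was lower, against 16.7% and 16.5% of all genes. The risen genes were Col6a2, Col27a1, Col6a1, Col18a1, Col4a6, Col20a1, Col5a3, Col8a2, Col15a1 and Col9a1, and 7 of them were at least 2-fold higher. The median collagen difference was 0.27, against 0.043 over all genes, and 34 of the 42 differences were above 0, against 56.4% of all genes. The 3 knockout clones all lay above the 3 WT clones for 19 collagens and all below them for 1, against 20.7% and 18.2% of all genes. Among brighter collagens, at or above the median level of all genes, 5 of 22 rose, against 13.8% of such genes, and among dimmer collagens 5 of 20 rose, against 4.23%. By class, the members that rose were 2 of 11 fibrillar chains, 3 of 9 basement membrane chains, 2 of 5 type VI chains, 2 of 9 FACIT chains, 1 of 3 short-chain network chains, 0 of 4 transmembrane chains and not the single other collagen, Col26a1.

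**Figure D1:**
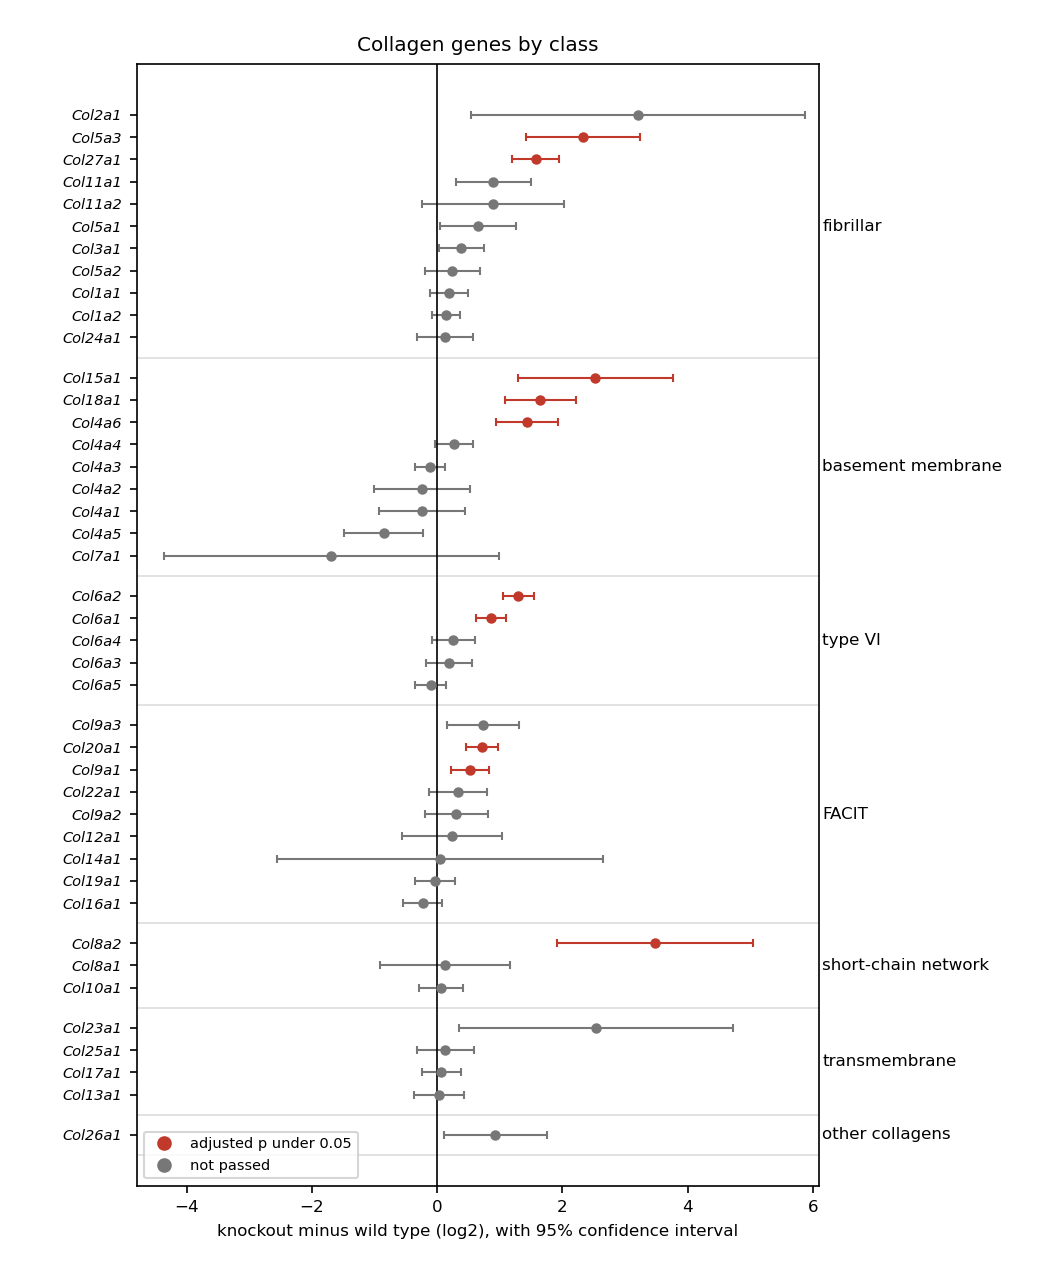
Knockout minus WT difference in log2 level for each of the 42 collagens, grouped by class, with bars showing 95% confidence intervals and colour marking genes past the limma threshold. All 11 fibrillar chains lie above 0, whereas basement membrane chains lie on both sides, with Col15a1 at 2.53 and Col7a1 at -1.69.

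The fibrillar chains were higher in knockout clones in all 11 cases by point estimate, but only Col5a3 and Col27a1 rose. Of all genes 56.4% had a difference above 0. The fibrillar median was 0.65, against 0.043 over all genes. Col5a3 encodes the alpha 3 chain of type V collagen, a minor fibril component. It read 10.26, 8.65 and 9.63 in the knockout clones, and 7.14, 7.29 and 7.10 in the WT clones. Every knockout clone exceeded every WT clone, with clone H the lowest of the knockout lines. The difference was 2.33 (SE 0.38, limma adjusted p = 0.0101), which is 5.04-fold. Col27a1, a fibrillar collagen best known from cartilage, had levels of 8.56, 8.09 and 8.25 in knockout clones and 6.64, 6.90 and 6.62 in WT clones. The groups lay more than 1 log2 unit apart and the difference was 1.58 (SE 0.16, limma adjusted p = 0.00251), or 2.99-fold.

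The chains of type I collagen, the main fibre of skin and bone, were close to the top of the array's range. Col1a1 had levels of 13.34, 13.56 and 13.37 in knockout clones and 13.04, 13.28 and 13.37 in WT clones, and the groups overlapped. Its difference was 0.19 (SE 0.13, limma adjusted p = 0.348), with a 95% interval of -0.11 to 0.50. Col1a2 had levels of 13.60, 13.62 and 13.61 in knockout clones and 13.41, 13.55 and 13.45 in WT clones, and its difference of 0.14 (SE 0.091, limma adjusted p = 0.344) had an interval of -0.08 to 0.36. The brightest value of any gene on any array was 13.7, and whether signal near it still followed RNA amount could not be measured from these arrays. Dimmer probe sets of both genes were also read. That of Col1a1, with a mean level of 9.76, differed by -0.068 (SE 0.25, limma adjusted p = 0.891), and its groups overlapped. Those of Col1a2 had mean levels of 12.63 and 7.13. They differed by 0.31 (limma adjusted p = 0.110) and 0.89 (limma adjusted p = 0.286), and neither passed.

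Type III collagen, which forms thin fibrils together with type I, gave different answers from its probe sets. The brightest probe set of Col3a1 read 13.31, 13.46 and 13.34 in knockout clones and 12.74, 13.25 and 12.96 in WT clones, a difference of 0.39 (SE 0.15, limma adjusted p = 0.124) that did not pass. Its other probe set read 11.28, 11.10 and 11.61 in knockout clones and 9.02, 9.43 and 9.02 in WT clones. That probe set lay 2 log2 units or more below the array's top in every clone and gave a difference of 2.18 (SE 0.18, limma adjusted p = 0.00182). Col5a2, the alpha 2 chain of type V, showed the same kind of split. The chosen probe set read 12.01, 12.65 and 12.23 in knockout clones and 11.96, 11.99 and 12.20 in WT clones, with overlap between the groups and a difference of 0.25 (SE 0.18, limma adjusted p = 0.405). A second, dimmer probe set read 10.92, 11.16 and 11.20 in knockout clones and 9.10, 8.94 and 9.56 in WT clones, without overlap, and its difference was 1.89 (SE 0.18, limma adjusted p = 0.00275). Whether Col3a1 and Col5a2 passed depended on which probe set was read.

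Among the other fibrillar chains, Col5a1, the most common chain of type V, had levels of 11.94, 12.84 and 12.09 in knockout clones and 11.42, 11.81 and 11.70 in WT clones, with a difference of 0.65 (SE 0.25, limma adjusted p = 0.129). Col11a1, a chain of the fibril core of cartilage that non-cartilage cells also make, had levels of 10.33, 10.81 and 11.24 in knockout clones and 9.60, 10.07 and 10.01 in WT clones. Its groups did not overlap, but its difference of 0.90 (SE 0.25, limma adjusted p = 0.0528) just missed the threshold. Without knockout clone E the Col11a1 difference was 1.13 (limma adjusted p = 0.0303). Col11a1 also passed with a trended robust prior, a further quantile normalisation, means of probe sets, array weights and the test of brighter genes alone. It did not pass in the other settings tried. Col24a1, a fibrillar collagen of developing bone, differed by 0.13 (SE 0.19, limma adjusted p = 0.686). It was dim, with a mean level of 2.44, and its difference was -0.074 without knockout clone H.

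**Figure D2:**
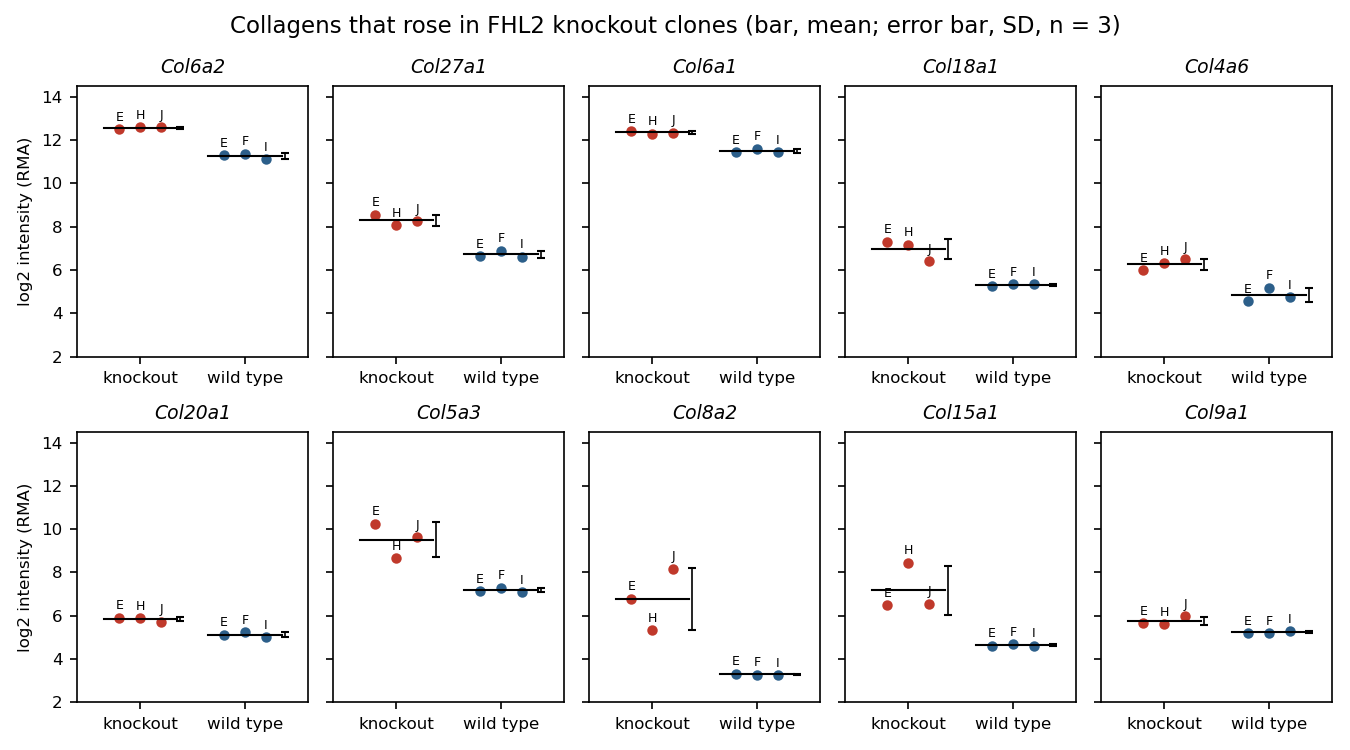
Log2 level in each clone for the 10 collagens that rose, with knockout clones drawn left of WT clones, a line at each group mean and an error bar of 1 SD (n = 3). Col6a1 and Col6a2 have tightly grouped clones, whereas Col8a2 and Col15a1 spread over more than 1 log2 unit among the knockout clones and over less than 0.1 among the WT clones.

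Type VI collagen is assembled from an alpha 1, an alpha 2 and usually an alpha 3 chain, and 2 of its 5 measured genes rose. Col6a2 had levels of 12.52, 12.61 and 12.59 in knockout clones and 11.30, 11.38 and 11.13 in WT clones. This was the smallest adjusted p of the family, with a difference of 1.30 (SE 0.10, limma adjusted p = 0.00162), or 2.46-fold. Col6a1 had levels of 12.43, 12.30 and 12.34 in knockout clones and 11.45, 11.61 and 11.45 in WT clones, a difference of 0.85 (SE 0.099, limma adjusted p = 0.00391), or 1.81-fold. For both genes the clones of each group lay within 0.3 log2 units of each other and the groups were clearly apart. Col6a3, the partner of both chains, read 11.69, 11.42 and 11.22 in knockout clones and 11.40, 11.25 and 11.12 in WT clones. Its groups overlapped, and its difference was 0.19 (SE 0.15, limma adjusted p = 0.442), with an interval of -0.17 to 0.55. The rarer chains Col6a4 and Col6a5, which can take the place of alpha 3, differed by 0.26 and -0.10 and did not pass.

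Within each clone, the level of Col6a1 minus that of Col6a3 was 0.67 higher in knockout clones than in WT clones, and the level of Col6a1 minus that of Col6a2 was 0.44 lower, since Col6a2 had the larger difference. Each gap separated the groups without overlap, and each had an exact two-sided permutation p of 0.10. That is the smallest p that 20 assignments of 3 against 3 clones can give, and the adjusted p over the 10 partner pairs examined was 0.167. A gap between 2 probe sets carries their own affinities, so only its change between genotypes is compared.

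Col6a2, Col6a1 and Col18a1 are near neighbours on chromosome 10, and all 3 rose. The 2 other measured genes between them in RefSeq's gene order were Slc19a1, a folate carrier, with a difference of 0.74 (limma adjusted p = 0.0149), and Pcbp3, an RNA-binding protein, with a difference of -0.68 (limma adjusted p = 0.0517). Of the 10 measured genes flanking this stretch, 0 rose and 1 fell, against 9.04% and 10.0% of all genes. Their median difference was 0.08, against 0.043 over all genes.

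The start regions of both risen type VI genes are shown because these neighbouring genes rose together with tight clone values. Each window runs from 250 bases before to 50 bases after the RefSeq start in GRCm38.p6, on the minus strand, at chr10:76725995-76726294 for Col6a1 and chr10:76623355-76623654 for the first of the 2 Col6a2 starts. Capitals mark matches on either strand to TGANTCA, the AP-1 motif, in Col6a1 and to GGGCGG, the GC box bound by Sp1-type factors, in Col6a2.
Col6a1: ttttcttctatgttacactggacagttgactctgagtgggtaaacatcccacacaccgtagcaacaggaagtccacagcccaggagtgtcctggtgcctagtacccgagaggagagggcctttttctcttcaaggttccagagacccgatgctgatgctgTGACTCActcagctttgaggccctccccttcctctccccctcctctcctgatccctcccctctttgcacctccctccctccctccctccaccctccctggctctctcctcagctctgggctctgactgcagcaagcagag
Col6a2: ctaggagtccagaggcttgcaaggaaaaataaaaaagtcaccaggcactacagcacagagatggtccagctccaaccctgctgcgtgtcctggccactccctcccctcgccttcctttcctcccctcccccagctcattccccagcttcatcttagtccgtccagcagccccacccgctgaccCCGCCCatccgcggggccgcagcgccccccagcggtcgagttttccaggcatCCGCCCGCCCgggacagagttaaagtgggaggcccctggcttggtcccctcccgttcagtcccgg
The Col6a1 window held 1 AP-1 motif and 0 GC boxes, whereas this Col6a2 window held 3 GC boxes, of which 2 overlapped, and 0 AP-1 motifs. A motif match is a string of letters, not a measured binding site.

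The basement membrane class held 3 genes that rose, 0 that fell and 6 that did not pass, with a median difference of -0.11 that was 0.020 with means of probe sets. Col15a1 and Col18a1 encode the multiplexin collagens of the basement membrane zone, each carrying an endostatin-type fragment at its end. Col18a1 had levels of 7.32, 7.18 and 6.42 in knockout clones and 5.27, 5.35 and 5.35 in WT clones. All knockout clones were more than 1 log2 unit above all WT clones, clone J being the lowest, and the difference was 1.65 (SE 0.24, limma adjusted p = 0.00708), or 3.14-fold. Col15a1 had levels of 6.49, 8.46 and 6.56 in knockout clones and 4.62, 4.68 and 4.62 in WT clones. Here clone H was the highest, and the difference was 2.53 (SE 0.52, limma adjusted p = 0.0203). The Col15a1 call was lost when any WT clone was left out, with adjusted p of 0.0638 to 0.0771, and the difference was 1.89 (limma adjusted p = 2.07e-04) without knockout clone H. The log2 of the summed levels of 6 markers of endothelium, a tissue that lies on basement membrane, was 8.62, 7.56 and 9.12 in knockout clones. It was 6.34 to 7.24 in WT clones. Clone H, the highest for Col15a1, thus had the lowest sum of the knockout clones. Of the 6 markers 1 rose, Tek, and 0 fell, against 9.04% and 10.0% of all genes. Tek read 8.36, 4.68 and 8.91 in knockout clones and 3.27, 3.31 and 2.54 in WT clones. The part of these markers in the collagen differences was not tested.

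Type IV genes lie head to head in pairs. Col4a1 and Col4a2, which make the common network of basement membranes, did not pass the test. Col4a1 read 10.94, 11.78 and 10.80 in knockout clones and 11.68, 11.45 and 11.13 in WT clones, and Col4a2 read 10.54, 11.18 and 10.17 in knockout clones and 11.20, 11.04 and 10.37 in WT clones. The groups overlapped for both genes, with clone H the highest of the knockout lines for each. Their differences were -0.25 and -0.24, with intervals of -0.93 to 0.44 and -1.0 to 0.52 and limma adjusted p of 0.604 and 0.654. The gap of Col4a1 minus Col4a2 within a clone was 0.39, 0.60 and 0.63 in knockout clones and 0.48, 0.41 and 0.75 in WT clones, so it differed by -0.01 (exact permutation p = 0.90, adjusted p = 1).

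The start windows of this pair are shown because these partner genes are read in opposite directions out of a shared stretch. In GRCm38.p6 the RefSeq starts are 21 bases apart, with Col4a1 at chr8:11312777-11313076 on the minus strand and Col4a2 at chr8:11312555-11312854 on the plus strand. Capitals mark the 78 bases that both windows hold, which read as each other's reverse complement.
Col4a1: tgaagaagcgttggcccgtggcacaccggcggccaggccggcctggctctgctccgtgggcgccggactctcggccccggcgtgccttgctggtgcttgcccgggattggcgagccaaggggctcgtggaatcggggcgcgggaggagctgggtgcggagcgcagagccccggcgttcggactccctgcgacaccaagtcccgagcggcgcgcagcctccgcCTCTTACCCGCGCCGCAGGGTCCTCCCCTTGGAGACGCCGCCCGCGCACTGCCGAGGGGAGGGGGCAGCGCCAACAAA
Col4a2: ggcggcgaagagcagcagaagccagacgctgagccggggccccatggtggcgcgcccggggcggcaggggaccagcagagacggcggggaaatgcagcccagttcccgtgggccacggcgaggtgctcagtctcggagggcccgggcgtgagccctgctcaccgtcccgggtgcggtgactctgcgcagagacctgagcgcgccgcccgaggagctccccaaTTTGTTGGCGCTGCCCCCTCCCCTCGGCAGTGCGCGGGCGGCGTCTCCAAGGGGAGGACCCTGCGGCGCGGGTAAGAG
Each window held 1 match to CCAAT, and neither held TATAAA. The Col4a1 window held 1 match to GGGCGG and the Col4a2 window held 3, on either strand. Of these, 1 lay in the shared stretch and so was in both windows.

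Col4a5 and Col4a6, which lie head to head on the X chromosome and encode chains of specialised basement membranes, had differences of opposite sign. Col4a6 read 5.99, 6.32 and 6.49 in knockout clones and 4.56, 5.19 and 4.75 in WT clones, a difference of 1.44 (SE 0.21, limma adjusted p = 0.00709), or 2.71-fold. Col4a5 read 10.11, 9.31 and 9.96 in knockout clones and 10.54, 11.02 and 10.38 in WT clones. It was the only collagen whose knockout clones all lay below the WT clones, with a difference of -0.85 (SE 0.26, limma adjusted p = 0.0680) and an interval of -1.48 to -0.23. A second Col4a5 probe set read 9.23, 8.61 and 9.27 in knockout clones and 9.89, 10.40 and 9.71 in WT clones, and its difference of -0.96 (SE 0.25, limma adjusted p = 0.0453) passed. The gap of Col4a5 minus Col4a6 was 2.29 log2 units smaller in knockout clones than in WT clones, without overlap (exact permutation p = 0.10, adjusted p = 0.167). Col4a3 and Col4a4, the other partners of Col4a5, differed by -0.11 and 0.27 and did not pass.

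The windows of Col4a6 and Col4a5 are shown as the contrast to the shared stretch above, since their RefSeq starts are 1343 bases apart and the windows share no base. They lie at chrX:141474027-141474326 on the minus strand for Col4a6 and chrX:141475169-141475468 on the plus strand for Col4a5, both in GRCm38.p6. Capitals mark matches to GGGCGG in Col4a6 and to GGGCGG and CCAAT in Col4a5, on either strand.
Col4a6: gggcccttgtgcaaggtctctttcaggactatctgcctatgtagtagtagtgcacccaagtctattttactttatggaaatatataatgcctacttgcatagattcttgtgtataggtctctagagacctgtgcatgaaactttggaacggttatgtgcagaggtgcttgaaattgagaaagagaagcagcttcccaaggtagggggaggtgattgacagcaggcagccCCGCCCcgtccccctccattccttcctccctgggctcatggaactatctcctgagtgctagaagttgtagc
Col4a5: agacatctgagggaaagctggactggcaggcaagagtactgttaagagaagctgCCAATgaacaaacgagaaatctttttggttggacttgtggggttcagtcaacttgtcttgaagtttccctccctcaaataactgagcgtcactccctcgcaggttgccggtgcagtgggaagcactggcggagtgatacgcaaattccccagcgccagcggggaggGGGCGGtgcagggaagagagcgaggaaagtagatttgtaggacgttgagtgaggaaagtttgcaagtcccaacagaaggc
Both windows held 1 GC box, and the CCAAT match was in the Col4a5 window alone.

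Col7a1 encodes the anchoring fibrils that tie the epidermal basement membrane to the dermis. It read 5.39, 9.44 and 5.13 in knockout clones and 8.68, 8.32 and 8.05 in WT clones. Clone H lay above every WT clone and clones E and J lay below them, and the difference of -1.69 (SE 1.11, limma adjusted p = 0.347) did not pass. Without clone H it was -3.09 (limma adjusted p = 3.34e-04).

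FACIT collagens rose in 2 of 9 cases, with a median difference of 0.31. Col20a1 had levels of 5.92, 5.88 and 5.73 in knockout clones and 5.13, 5.23 and 5.01 in WT clones. The clones of each group lay within 0.3 log2 units of each other, and the difference was 0.72 (SE 0.11, limma adjusted p = 0.00826), or 1.65-fold. Col9a1, a chain of the type IX collagen that coats cartilage fibrils, had levels of 5.67, 5.62 and 5.99 in knockout clones and 5.21, 5.21 and 5.28 in WT clones, with a difference of 0.52 (SE 0.13, limma adjusted p = 0.0339). The Col9a1 call was lost when any clone other than knockout clone H was left out, with adjusted p of 0.0688 to 0.106. It was also lost with its other probe set, whose difference was 0.055 (limma adjusted p = 0.853 among probe sets without the suffix _a_at, _s_at or _x_at). Col9a3 and Col9a2, the partners of Col9a1, differed by 0.73 (SE 0.24, limma adjusted p = 0.0833) and 0.31, and without clone H the Col9a3 difference was 0.86 (limma adjusted p = 0.0451).

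Several FACIT chains that fibroblasts of skin and tendon make did not pass. Col12a1 differed by 0.24 (SE 0.33, limma adjusted p = 0.671) and Col16a1 by -0.23 (SE 0.13, limma adjusted p = 0.263). Col14a1 had levels of 5.71, 6.89 and 7.20 in knockout clones and 5.53, 9.13 and 5.02 in WT clones, and WT clone F stood more than 3 log2 units above the other two WT clones. It was the only collagen with a WT standard deviation above 1, and its difference was 0.043 (SE 1.08, limma adjusted p = 0.982). Col22a1 and Col19a1, found at tissue junctions and in muscle and brain, differed by 0.34 and -0.032.

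Among the short-chain network collagens, Col8a2 rose and had the largest difference of the 42 genes. Type VIII collagen forms hexagonal lattices in the cornea and in vessel walls, and Col8a1 and Col8a2 are its chains. Col8a2 had levels of 6.79, 5.34 and 8.18 in knockout clones and 3.33, 3.29 and 3.26 in WT clones. The WT clones sat within 0.1 log2 units of each other below the 25th percentile of genes, which was 3.76, and the knockout clones were 2 to 5 log2 units higher, with clone H the lowest. The difference was 3.48 (SE 0.65, limma adjusted p = 0.0155), or 11.1-fold. The size of a fold against so dim a level is uncertain. The call was lost when any WT clone was left out, with adjusted p of 0.0522 to 0.0623, and the difference was 4.19 without knockout clone H. Col8a1 read 9.31, 10.52 and 11.04 in knockout clones and 10.08, 9.92 and 10.49 in WT clones, with overlap and a difference of 0.13 (SE 0.43, limma adjusted p = 0.871). Col10a1, the collagen of hypertrophic cartilage, differed by 0.063 (limma adjusted p = 0.805).

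The Col8a2 start window is shown because the gene had the largest difference. It lies at chr4:126286544-126286843 on the plus strand of GRCm38.p6, and capitals mark matches to GGGCGG on either strand.
Col8a2: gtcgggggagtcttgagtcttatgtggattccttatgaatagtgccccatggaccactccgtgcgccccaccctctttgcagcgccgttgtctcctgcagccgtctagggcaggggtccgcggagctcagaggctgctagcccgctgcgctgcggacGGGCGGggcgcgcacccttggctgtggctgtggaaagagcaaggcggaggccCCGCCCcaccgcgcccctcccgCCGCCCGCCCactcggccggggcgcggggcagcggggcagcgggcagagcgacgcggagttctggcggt
It held 4 matches, of which 2 overlapped, and no match to the other motifs searched.

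None of the 4 transmembrane collagens passed, although all 4 differences were above 0. Col23a1, a collagen that can be shed from the cell surface, had levels of 9.63, 5.85 and 8.81 in knockout clones and 5.77, 5.48 and 5.43 in WT clones. Knockout clones E and J were more than 3 log2 units above the highest WT clone, clone H was only just above it, and the difference was 2.53 (SE 0.91, limma adjusted p = 0.106). Without clone H it was 3.66 (limma adjusted p = 3.85e-04). Another Col23a1 probe set passed with all clones included, with a difference of 3.11 (SE 0.76, limma adjusted p = 0.0381). Col13a1, Col17a1 and Col25a1, which sit at cell junctions, in hemidesmosomes and on neurons, differed by 0.027, 0.071 and 0.13. Col26a1 had levels of 3.26, 4.71 and 3.88 in knockout clones and 3.03, 3.09 and 2.93 in WT clones, with no overlap and a difference of 0.93 (SE 0.34, limma adjusted p = 0.113). Without knockout clone E it was 1.28 (limma adjusted p = 0.0368).

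The classical cartilage collagens, of types II, IX, X and XI, formed a list that crosses the classes, with Col2a1, Col9a1, Col9a2, Col9a3, Col10a1, Col11a1 and Col11a2. Col27a1, which is also known from cartilage and rose, was not on this list. All 7 listed genes had differences above 0 and their median was 0.73, while 1 of the 7, Col9a1, rose. Col2a1, the main fibre of cartilage, had levels of 10.56, 5.86 and 9.15 in knockout clones and 5.06, 5.34 and 5.54 in WT clones. Clone E was about 5 log2 units above the WT clones and clone J about 4, while clone H lay within 1 unit of them. The difference was 3.21 (SE 1.11, limma adjusted p = 0.0951), and without clone H it was 4.54 (limma adjusted p = 7.70e-04). Col11a2, a partner of Col11a1, was highest in clone H, with levels of 4.09, 5.90 and 4.23 in knockout clones and 3.83, 3.75 and 3.96 in WT clones and a difference of 0.89 (SE 0.47, limma adjusted p = 0.242).

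Other cartilage genes were read beside these values. The log2 of the summed linear levels of 8 chondrocyte markers, all with a mean below the median level of all genes, reached 9.06 in knockout clone E, 7.20 in H and 8.56 in J, while the WT clones spanned 6.60 to 6.68. Of the 8 markers 1 rose, Epyc, a proteoglycan of growth cartilage, and 0 fell, against 9.04% and 10.0% of all genes. Cnmd, the cartilage glycoprotein chondromodulin, read 8.42, 2.97 and 7.27 in knockout clones and 3.08, 3.08 and 3.08 in WT clones, so it was high in clones E and J alone. Sox9, the factor that activates Col2a1 in cartilage, read 10.08, 6.29 and 9.03 in knockout clones and 6.79, 7.19 and 7.13 in WT clones, with a difference of 1.43 (SE 0.90, limma adjusted p = 0.325) that was 2.52 (limma adjusted p = 0.00240) without clone H. Acan, the main proteoglycan of cartilage, was dim, at 3.81, 3.95 and 4.14 in knockout clones and 3.74, 3.80 and 3.83 in WT clones. The part of these markers in the collagen differences was not tested.

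The spread among clones was described for each genotype. The standard deviation among clones was above 1 for 6 collagens (14.3%) in knockout clones and for 1 (2.38%) in WT clones, against 3.25% of all genes in knockout clones and 0.566% in WT clones. The median collagen standard deviation was 0.33 in knockout clones and 0.18 in WT clones, against 0.17 and 0.15 over all genes. Col2a1 and Col23a1 were low in clone H, whereas Col7a1 and Col15a1 were high there. Among 6 smooth muscle markers 0 rose and 1, Actg2, fell with all clones included, against 9.04% and 10.0% of all genes. Of the knockout clones, H had the highest level of Acta2, Tagln, Cnn1, Myh11 and Actg2 but the lowest of Smtn, and its Actg2 level of 6.61 was below those of the WT clones, which were 11.23, 9.71 and 7.62. The log2 of the summed levels of the 6 markers was 11.2 in knockout clone E, 14.1 in H and 11.2 in J, with 13.9 to 14.6 in the WT clones. Tagln, an actin-binding protein of smooth muscle, read 8.14, 12.76 and 9.01 in knockout clones and 13.25, 12.64 and 12.88 in WT clones. The part of these markers in the clone differences was not tested.

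**Figure D3:**
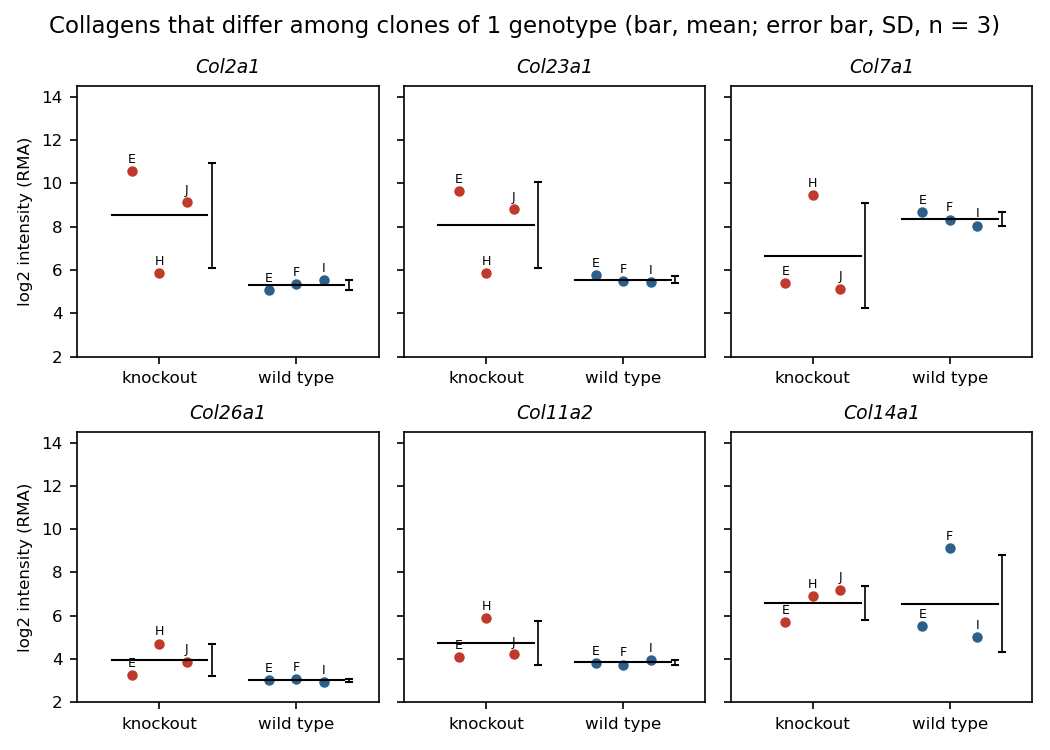
Log2 level in each clone for 6 collagens whose clones of a genotype lie far apart, with knockout clones drawn left of WT clones, a line at each group mean and an error bar of 1 SD (n = 3). Knockout clone H lies low for Col2a1 and Col23a1 and high for Col7a1, Col26a1 and Col11a2, and WT clone F lies high for Col14a1.

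Of the 10 risen collagens, 7 stayed past the threshold in all 6 fits that left out 1 clone, namely Col6a2, Col27a1, Col6a1, Col18a1, Col4a6, Col20a1 and Col5a3. Without knockout clone H, 13 collagens rose and 1 fell, against 12.7% and 13.4% of all genes in that fit, with Col2a1, Col23a1 and Col9a3 added to the risen genes and Col7a1 the one that fell. Without knockout clone E 11 collagens rose, against 5.32% of all genes, and without J 9 rose, against 4.45%. Without WT clone E, F or I, 7 rose each time, against 4.27%, 4.91% and 5.28%. Limiting the test to genes at or above the median level gave 6 risen collagens and 1 fallen one, Col4a5, among 22. In that test 15.5% of genes rose and 19.0% fell. Of the 6, Col11a1 was added and 5 were among the 10 risen above, whose other 5 members were too dim to be tested. With clones weighted by how well their arrays fitted, 13 collagens rose and 1, Col7a1, fell, against 13.2% and 13.9%. Averaging the probe sets of a gene gave 12 risen collagens, against 9.05%.

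A second reading of the family came from its 82 probe sets. For 27 collagens more than 1 probe set was available, giving 40 further probe sets, of which 33 had the sign of the chosen one. In a fit of all 34945 probe sets, in which 7.82% were higher and 8.99% lower, 9 of the 40 were higher and 1 was lower. Of the 7 risen collagens with more than 1 probe set, 5 had another that passed in the same direction. The second probe sets of Col18a1, Col27a1, Col6a2 and Col4a6 gave differences of 2.05, 2.13, 1.41 and 1.09. The exceptions were Col5a3, whose dim second probe set differed by 0.42 (SE 0.14, limma adjusted p = 0.0844), and Col9a1. In 4 genes, Col3a1, Col5a2, Col23a1 and Col4a5, only another probe set passed, so 14 collagens had at least 1 probe set past the threshold, and 0 had probe sets that passed in opposite directions. The names of the Col6a2 probe sets end in _a_at for the chosen one and in _x_at, a mark of possible cross-hybridisation, for the other. A setting that left out probe sets ending in _a_at, _s_at or _x_at therefore did not test Col6a2.

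**Figure D4:**
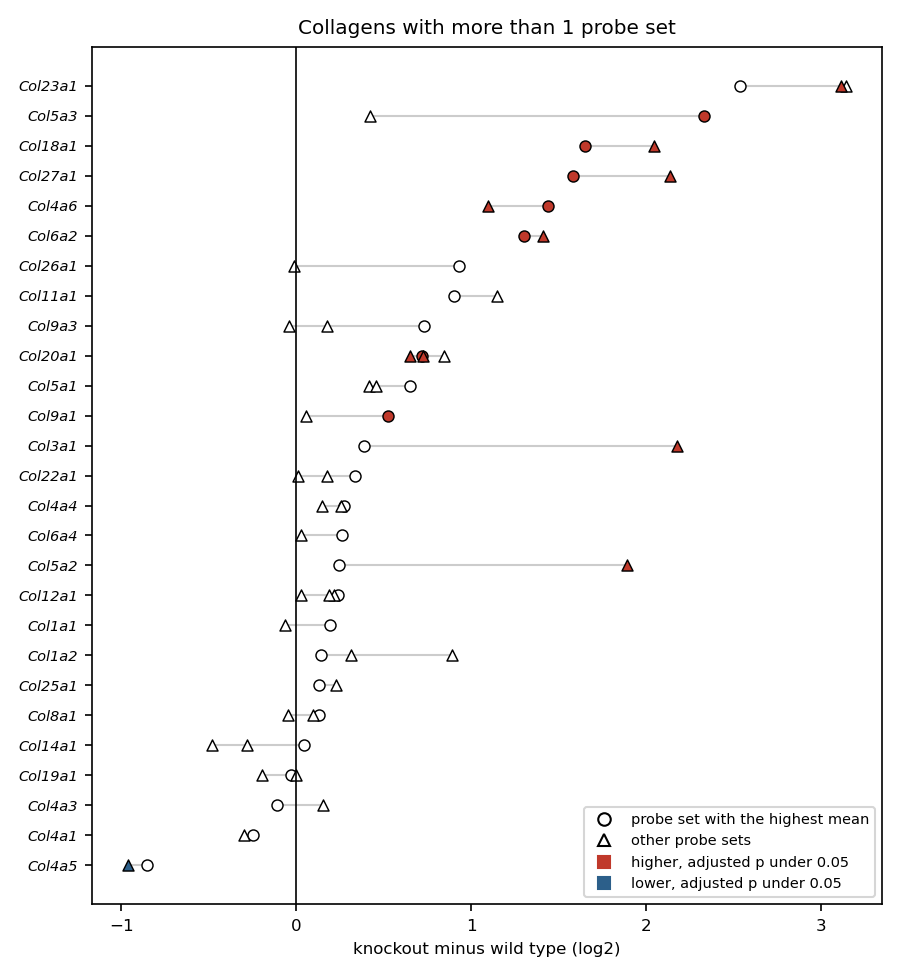
Knockout minus WT difference in log2 level for the 27 collagens with more than 1 probe set, with a circle for the probe set of highest mean level and triangles for the others, filled where limma passed. Triangles of Col3a1 and Col5a2 lie at 2.18 and 1.89, far right of their circles at 0.39 and 0.25, while the triangle of Col5a3 lies far left of its circle.

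Partner chains of 1 collagen type were compared as a change in the gap between them. In 6 of the 10 pairs the gap separated the genotypes without overlap, each with an exact two-sided permutation p of 0.10 and an adjusted p of 0.167. Besides the type VI and Col4a5 pairs above, these were Col8a1 minus Col8a2, which was 3.35 lower in knockout clones, Col5a1 minus Col5a2, which was 0.40 higher, and Col4a3 minus Col4a4, which was 0.39 lower. Of all single genes, 20.7% separated with the knockout higher and 18.2% with it lower, and no share was computed for gaps. Col4a3 and Col4a4 were dim, with mean levels of 3.18 and 3.32. Their other probe sets differed by 0.15 for Col4a3 and by 0.15 and 0.25 for Col4a4, and none passed. The direction for type V depended on the probe set, since Col5a1 differed by 0.65 and the other Col5a2 probe set by 1.89. The gap changed by 0.05 for Col1a1 minus Col1a2 (exact permutation p = 0.50, adjusted p = 0.625), by 0.22 for Col9a1 minus Col9a2 (exact permutation p = 0.40, adjusted p = 0.571) and by 0.01 for Col11a1 minus Col11a2 (exact permutation p = 1, adjusted p = 1).

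Of the 42 collagens, 33 matched a RefSeq start window, giving 36 windows of 300 bases, among them those of all 10 risen genes. TATAAA was found in 5 of the 36 collagen windows, 13.9%, and in 13.6% of all 32851 mouse windows of this length. CCAAT was in 13 collagen windows, 36.1%, against 37.4% of all windows. GGGCGG was in 22 collagen windows, 61.1%, against 35.7% of all windows. TGANTCA was in 1 collagen window, that of Col6a1, 2.78%, against 7.81% of all windows. Counted by gene, with a match in any of its windows, 5 of the 33 collagens had TATAAA, 13 had CCAAT and 21 had GGGCGG. Among the 10 risen genes, 0 had TATAAA, 3 had CCAAT and 6 had GGGCGG in a window. Both strands were searched, and these letters describe the windows only.

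Collagen chains are hydroxylated, glycosylated and folded in the endoplasmic reticulum before they are secreted. Of 18 measured genes of that step, 7 rose and 0 fell, with 14 differences above 0 and a median of 0.45, against 9.04% and 10.0% of all genes and a median of 0.043. P3h3 and P3h4 encode parts of a complex that assists lysine hydroxylation of collagen. P3h3 had levels of 9.27, 9.31 and 9.12 in knockout clones and 7.19, 7.62 and 7.68 in WT clones, a difference of 1.73 (SE 0.16, limma adjusted p = 0.00205). P3h4 had levels of 10.55, 9.79 and 10.40 in knockout clones and 9.09, 8.67 and 8.86 in WT clones, a difference of 1.37 (SE 0.22, limma adjusted p = 0.0102). In each gene the knockout clones were well clear of the WT clones. P4ha3, a catalytic subunit of prolyl 4-hydroxylase, which makes the hydroxyproline that steadies the helix, had levels of 6.79, 8.30 and 7.34 in knockout clones and 5.05, 4.59 and 5.0 in WT clones. It showed the largest difference of the list, 2.60 (SE 0.37, limma adjusted p = 0.00714), or 6.07-fold, with clone H the highest. The other catalytic subunits did not pass, P4ha1 differing by -0.61 and P4ha2 by 0.45.

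Fkbp14, a prolyl isomerase of the endoplasmic reticulum, read 9.34, 9.01 and 9.35 in knockout clones and 7.73, 7.72 and 7.09 in WT clones, a difference of 1.72 (SE 0.21, limma adjusted p = 0.00424). The remaining 3 risen genes of the list were chosen for mention after their values were seen. P3h2, a prolyl 3-hydroxylase, differed by 1.91 (SE 0.35, limma adjusted p = 0.0146), a call lost without WT clone E (adjusted p = 0.0633) or I (adjusted p = 0.0510). Crtap and P3h1, partners in a prolyl 3-hydroxylation complex, differed by 0.50 (SE 0.12, limma adjusted p = 0.0363) and 0.45 (SE 0.12, limma adjusted p = 0.0455). The P3h1 call was lost without any one clone, and that of Crtap without any clone other than knockout H and after centring the arrays (adjusted p = 0.0547). Serpinh1, the collagen chaperone HSP47, and Ppib, the third member of the Crtap complex, differed by 0.087 and -0.048 and did not pass.

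**Figure D5:**
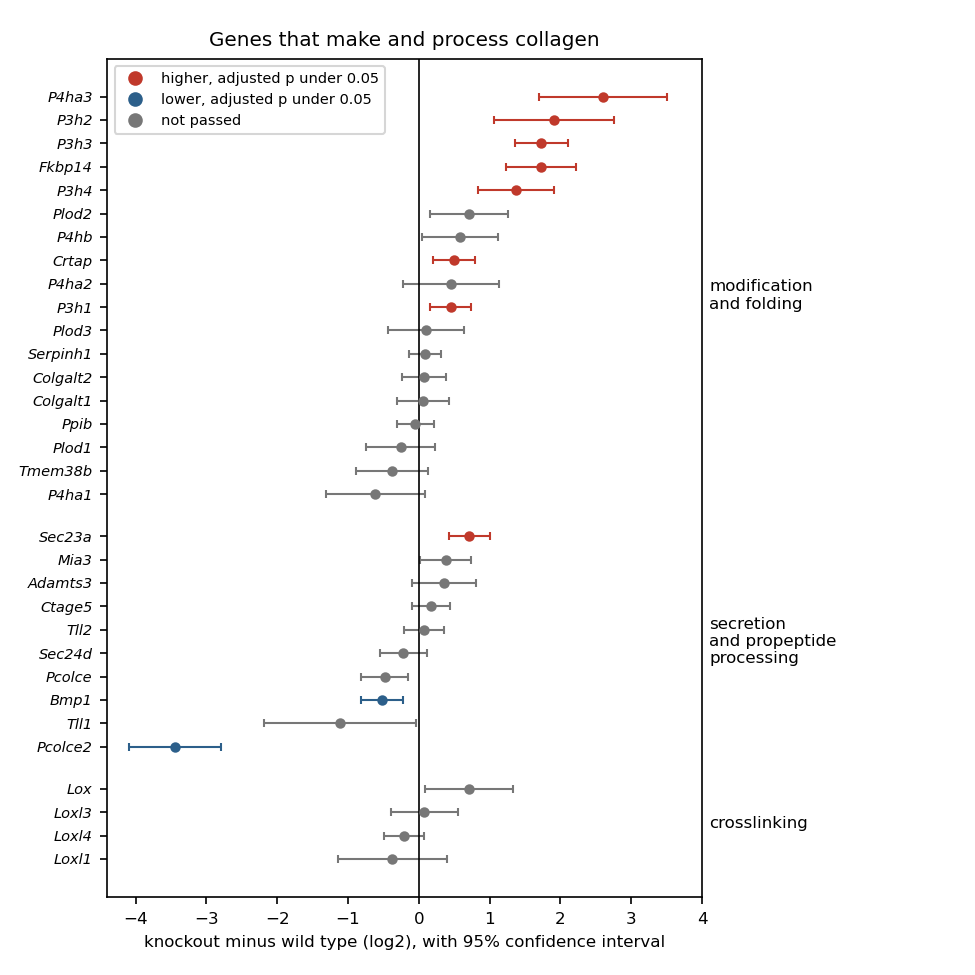
Knockout minus WT difference in log2 level for the genes of collagen modification, secretion and crosslinking, with 95% confidence intervals and colour marking genes past the limma threshold. The 7 risen modification genes include P4ha3 at 2.60, and Pcolce2 lies lowest at -3.45.

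Genes of secretion and propeptide removal included 1 that rose and 2 that fell among 10 measured, with a median of -0.07, against 9.04% that rose and 10.0% that fell over all genes. Pcolce2, which enhances removal of the carboxy-terminal propeptide, had levels of 3.51, 2.86 and 2.91 in knockout clones and 6.82, 6.03 and 6.77 in WT clones. Knockout clones sat below the 25th percentile of genes, and the difference was -3.45 (SE 0.27, limma adjusted p = 0.00158). Bmp1, the proteinase that Pcolce2 assists, read 9.02, 9.22 and 9.17 in knockout clones and 9.57, 9.85 and 9.55 in WT clones. Its difference of -0.52 (SE 0.12, limma adjusted p = 0.0324) lost its call when any clone other than knockout H was left out, with adjusted p of 0.0626 to 0.0986. The brighter paralogue Pcolce differed by -0.48 (SE 0.14, limma adjusted p = 0.0552) and did not pass. Sec23a, a coat protein of the vesicles that carry procollagen out of the endoplasmic reticulum, rose, with levels of 9.56, 9.88 and 9.85 in knockout clones and 9.10, 8.98 and 9.07 in WT clones and a difference of 0.72 (SE 0.12, limma adjusted p = 0.0112).

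Crosslinking and cell-surface recognition held few called genes. Of 4 measured lysyl oxidase genes 0 passed limma's test in either direction, their median difference being -0.07. Lox, the enzyme that starts collagen crosslinks, read 12.12, 12.73 and 12.52 in knockout clones and 11.26, 12.10 and 11.90 in WT clones, and its difference of 0.71 (SE 0.26, limma adjusted p = 0.111) did not pass. Its relatives Loxl1, Loxl3 and Loxl4 differed by -0.37, 0.076 and -0.21. Of 10 collagen receptors 1 rose and 0 fell, against 9.04% and 10.0% of all genes, with a median of -0.14. The risen one, Gp6, the collagen receptor of platelets, was dim, at 4.17, 4.15 and 4.29 in knockout clones and 3.85, 3.86 and 3.86 in WT clones, and its difference of 0.34 (SE 0.091, limma adjusted p = 0.0449) lost its call after centring the arrays (adjusted p = 0.0875) and without any clone other than knockout H. Itgb1, the beta chain shared by the collagen-binding integrins, differed by -0.54 (SE 0.23, limma adjusted p = 0.154). Adgrg1, an adhesion receptor that binds type III collagen, differed by -0.46 (SE 0.27, limma adjusted p = 0.299), and Ddr1, a receptor kinase for collagen, by -0.38 (SE 0.28, limma adjusted p = 0.403).

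Transcription factors known to act on collagen genes included 1 that rose and 2 that fell among 10 measured, with a median of 0.29, and the shares of all genes were 9.04% and 10.0%. Mkx, a homeobox factor of tendon cells, had levels of 5.20, 4.84 and 5.91 in knockout clones and 3.11, 3.21 and 3.45 in WT clones, a difference of 2.06 (SE 0.27, limma adjusted p = 0.00575). Smad3, which carries transforming growth factor beta signals to collagen promoters, read 7.53, 8.69 and 7.93 in knockout clones and 9.45, 9.41 and 9.28 in WT clones. Its difference was -1.33 (SE 0.28, limma adjusted p = 0.0235), which did not pass without knockout clone J or any WT clone, with adjusted p of 0.0631 to 0.0879. Cebpb, a leucine-zipper factor, differed by -0.71 (SE 0.18, limma adjusted p = 0.0430), a call lost without any clone other than knockout H and after a further quantile normalisation (adjusted p = 0.0525). Scx, another tendon factor, was dim in all clones and differed by -0.45 (SE 0.13, limma adjusted p = 0.0631).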

How the data were processed

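Total RNA of 6 clones was labelled with biotin by a one-cycle 3′ amplification protocol and hybridised to 1-colour Affymetrix arrays, per the labels' protocols. The deposited values were log2 levels per probe set, and RMA is named in the submitters' processing notes without a version. RMA corrects background, normalises by quantiles and summarises probes, so a further between-array normalisation was only tried as an alternative. Arrays give no read depth, and their number limits the precision.

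Of 45101 probe sets, 64 were controls, 932 had several gene symbols and 9160 had none. The other 34945 carried 1 symbol, and 34741 of these matched RefSeq (GRCm38.p6) by gene ID, with 0 symbols changed. For each of 18193 genes, of which 9010 had more than 1 probe set, the probe set with the highest mean level over the 6 arrays was used. limma 3.58.1 in R 4.3.3 was fitted with genotype as the single term (lmFit, eBayes), with Benjamini-Hochberg adjustment over all genes and a threshold of 0.05. Confidence intervals are at 95%. The steps were tested on simulated data. Gaps between partner chains were tested by exact permutation in Python 3.11.15.

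By rule, values per clone were given for the collagens that passed and for the main chains of types I, III, IV and VI, other collagens with a difference of at least 1 were named, and each pathway list gave up to 4 genes with the smallest p. Clone values of the remaining collagens named, and of Sox9, Cnmd, Acan, Tagln, Tek, Lum and Fap, were chosen after their values were seen. The members, lists and named genes were chosen with earlier results of these data known. There were 15 alternatives, whose effect is given in the closing section. Col6a6 and Col28a1 were not analysed here.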

Additional observations from a re-analysis of the deposited data

How the results depend on the processing

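The counts of 10 risen and 0 fallen collagens became 6 and 1 when the test was limited to genes at or above the median level, with 22 collagens tested. They became 13 and 1 with array weights. With 1 clone left out, 7 to 13 rose and 0 to 1 fell. The other settings tried were a trended robust prior, a further quantile normalisation, centred arrays, means of probe sets and every probe set. Also tried were a 2-fold threshold and leaving out probe sets with the suffix _a_at, _s_at or _x_at. These settings gave 7 to 12 risen and 0 fallen collagens. Centring moved the median of all genes to -0.03, against 0.043 without it. A further count took 19 collagens: those that passed, those with a difference of at least 1, and the main chains of types I, III, IV and VI. Of their 278 values, 254 kept their side of the threshold, 16 lost it, 8 gained it and 0 turned direction. Most of the 19 were picked for a large or passing difference, so few turns could arise. Some collagens outside the 19 did turn, such as Col8a1, at -0.25 without knockout clone J, and Col12a1, at -0.092 without knockout clone H.

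With means of probe sets the median difference of the fibrillar chains was 1.02, of the FACIT chains 0.17, of the cartilage list 0.31 and of the receptors -0.030, and that of the basement membrane chains turned to 0.020. Limited to brighter genes it was 0.85 for type VI, 0.04 for FACIT, 2.53 for transmembrane and 2.06 for cartilage collagens, -0.024 for secretion, -0.30 for receptors and 0.45 for transcription factors. This limit changes a median only through the members it drops. It dropped 2 of 5 type VI, 6 of 9 FACIT, 3 of 4 transmembrane and 5 of 7 cartilage collagens. The transmembrane value is thus Col23a1 alone, which did not pass, and the cartilage value rests on Col2a1 and Col11a1. Without probe sets of the suffix _a_at, _s_at or _x_at it was 0.52 for cartilage, 0.073 for secretion and -0.028 for receptors. Array weights gave 0.58 for cartilage and 0.36 for modification, a further quantile normalisation 0.52 for modification, and centring 0.38 for modification, -0.15 for secretion and -0.22 for receptors. Over fits with 1 clone left out, medians were 0.34 to 0.82 for fibrillar, -0.16 to -0.0093 for basement membrane, 0.21 to 0.51 for FACIT, 0.011 to 0.62 for short-chain and 0.57 to 0.83 for cartilage collagens, 0.30 to 0.46 for modification, -0.12 to -0.044 for secretion and -0.16 to -0.038 for receptors, and the crosslinking median, -0.066 with all clones, was 0.039 without knockout clone E and 0.046 without WT clone I. The cause of the shifts in the other settings was not tested.

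No paired analysis was possible because the genotypes share 1 clone letter, E, and the labels tie no lines together. Folds of genes near the array's lowest signals are uncertain, and differences near its highest value could not be checked for saturation.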
